A study of Mus musculus with 9 samples.

Results

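The 10 genes that encode the main structural proteins of the glomerular basement membrane were followed across isolated mouse glomeruli: the type IV collagen chains Col4a1, Col4a2, Col4a3, Col4a4 and Col4a5, the laminin chains Lama5, Lamb2 and Lamc1, and the heparan sulfate proteoglycans Agrn (agrin) and Hspg2 (perlecan). They were chosen as the non-control array probes that carry 1 of these 10 gene names, which gave 18 of the 56605 probes. All 18 probes and all 10 genes passed the filter on dim signals and were among the 24164 genes and unnamed transcripts tested. The arrays measured total RNA labelled with Cy3, 3 arrays per group and 9 in all.

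The groups were male BTBR ob/ob mice fed enarodustat, male BTBR ob/ob mice fed vehicle, and male BTBR wild-type mice fed vehicle, all aged 22 weeks and fed these diets for 18 weeks. BTBR is an inbred strain. The ob allele removes leptin in the whole animal, so the ob/ob mice differ from wild type in weight and blood glucose as well as in the kidney, and they are used as a model of diabetic kidney disease. Enarodustat is an inhibitor of the prolyl hydroxylases that mark hypoxia-inducible factors for degradation. Wild-type mice fed enarodustat were not analysed here. Glomeruli were collected with magnetic beads, and the labels do not say whether an array holds 1 mouse or a pool, so the p-values measure only the spread between these arrays.

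The glomerular basement membrane is the sheet between the endothelium and the podocytes, and it forms part of the filtration barrier. In the mature membrane, podocytes supply a network of the collagen chains α3, α4 and α5, while chains α1 and α2, which are found in nearly all basement membranes, lie on the endothelial side and fill the mesangial matrix. Laminin-521, built from the chains that Lama5, Lamb2 and Lamc1 encode, forms a second network, and agrin and perlecan carry heparan sulfate. Mutations of Col4a3, Col4a4 or Col4a5 cause Alport syndrome, mutations of Lamb2 cause Pierson syndrome, and a thickened membrane with an expanded mesangial matrix is a hallmark of diabetic kidney disease.

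The 9 arrays were of similar quality. The 75th percentile of the signal, by which each array was scaled, lay between 210.5 and 325.4, no spot was saturated, and the share of probes with a signal well over background was 62.3% to 68.3%. Correlations between arrays were 0.978 to 0.987 within groups and 0.967 to 0.984 between groups. All 12 podocyte, all 12 glomerular endothelial and all 10 mesangial markers were well above background on every array, as the tissue label requires. All 14 proximal tubule markers were well above background too, and their median level ranged widely within groups, between -0.07 and 2.79 in ob/ob enarodustat, -2.30 and 0.65 in ob/ob vehicle, and 0.03 and 3.77 in wild-type vehicle. The highest of these belonged to wild-type replicate 3 and enarodustat replicate 2, and the lowest to ob/ob vehicle replicate 3. Replicate 3 of the enarodustat group was hybridised on a slide of its own, and the other 8 arrays shared a slide.

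Against wild type, the ob/ob vehicle glomeruli had higher Col4a2 and lower Col4a4 and Agrn, and the 7 other members did not pass the test. A gene is called here when limma's p-value, adjusted by the Benjamini-Hochberg method over all 24164 features, is under 0.05. By this rule 3 of the 10 members were called, beside 7.55% of all features (1 higher, beside 4.9%, and 2 lower, beside 2.66%). The values of the ob/ob vehicle and wild-type arrays did not overlap for 9 of the 10 members, all but Col4a1, beside 30.7% of all features. The members split evenly in direction, with 5 above and 5 below 0, a median log2 change of -0.05 and extremes of -0.54 and 1.17, and the median over all features was 0.02.

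Between ob/ob enarodustat and ob/ob vehicle no member was called, beside 0% of all features, so the comparison gave no call anywhere on the array. At an unadjusted p under 0.05, 3 members stood out (Col4a1, Col4a4 and Col4a5, all lower with enarodustat), beside 3.59% of all features lower at that level. The arrays of the 2 groups did not overlap for 2 of the 10 members, Col4a4 and Col4a5, both lower with enarodustat, beside 9.49% of all features that were lower without overlap. For Col4a5 the nearest arrays were almost equal (1.6570 with enarodustat, 1.6571 with vehicle). The second Col4a4 probe gave 0.09 between the diets. The median log2 change of the members was -0.01, against -0.03 over all features.

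Between ob/ob enarodustat and wild type, 5 of the 10 members were called, beside 10.2% of all features. Col4a2 and Hspg2 were the 2 higher ones, beside 6.1% of all features, and Col4a4, Col4a5 and Agrn the 3 lower ones, beside 4.09%. The arrays did not overlap for 8 of the 10 members, beside 30.8% of all features. This comparison shares its wild-type arrays with the comparison of ob/ob vehicle and its enarodustat arrays with the comparison of the diets, so the 3 sets of values below are given side by side and are not independent of each other.

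**Figure D1:**
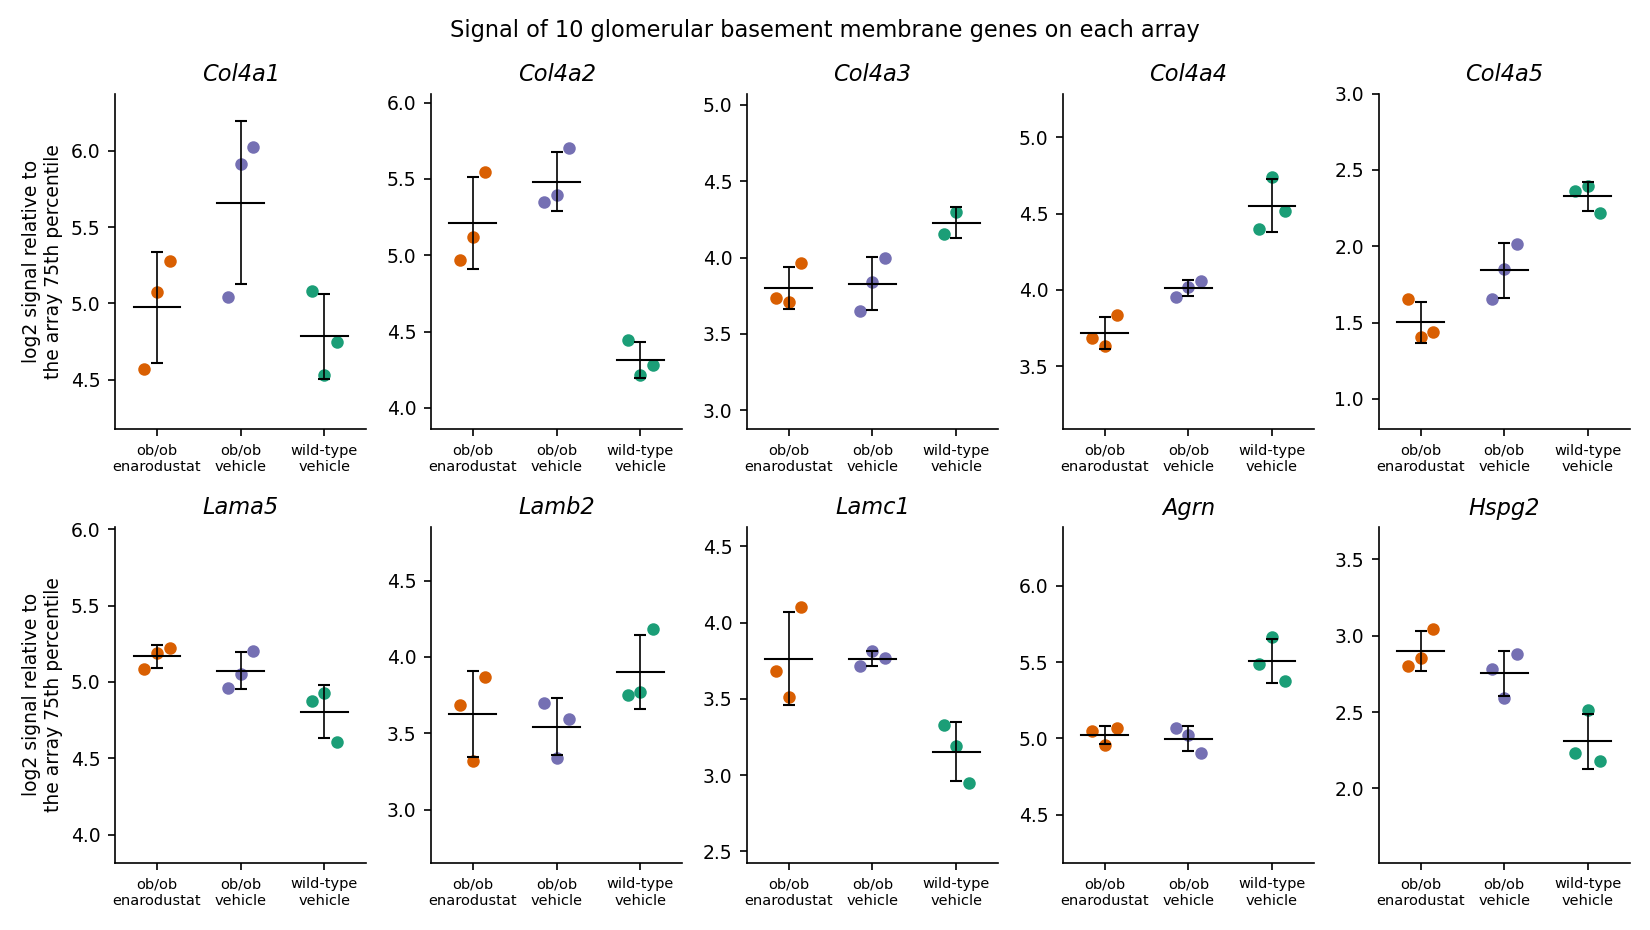
Log2 signal relative to the array's 75th percentile for each of the 10 genes, by group; points are single arrays, the horizontal bar is the group mean and the whiskers are 1 SD, and every panel spans the same number of log2 units. Col4a2 is above all wild-type arrays in both ob/ob groups, Col4a4, Col4a5 and Agrn are below them, and Col4a3 has 2 wild-type points because 1 spot was not usable.

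Col4a1 and Col4a2 encode the widespread α1 and α2 chains, which assemble together as α1α1α2. They lie head to head on opposite strands of chromosome 8, and their annotated starts are 21 bases apart. The plus-strand start of Col4a2 is at 11312805 and the minus-strand start of Col4a1 at 11312826. The annotated transcripts therefore overlap at their starts and leave no gap. In the RefSeq promoter windows (GRCm38.p6, 250 bases before to 50 after each start) the 2 genes share 78 bases, chr8:11312777-11312854, shown in capitals because the windows of both genes hold them. The Col4a1 window is chr8:11312777-11313076 on the minus strand and the Col4a2 window is chr8:11312555-11312854 on the plus strand, so the capitals of the first are the reverse complement of the capitals of the second.
Col4a1: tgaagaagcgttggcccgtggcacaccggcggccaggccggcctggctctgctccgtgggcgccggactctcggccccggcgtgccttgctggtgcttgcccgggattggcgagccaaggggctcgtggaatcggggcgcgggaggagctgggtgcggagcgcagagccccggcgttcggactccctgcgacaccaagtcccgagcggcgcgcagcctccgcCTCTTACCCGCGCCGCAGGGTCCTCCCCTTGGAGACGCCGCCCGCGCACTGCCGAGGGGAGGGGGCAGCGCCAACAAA
Col4a2: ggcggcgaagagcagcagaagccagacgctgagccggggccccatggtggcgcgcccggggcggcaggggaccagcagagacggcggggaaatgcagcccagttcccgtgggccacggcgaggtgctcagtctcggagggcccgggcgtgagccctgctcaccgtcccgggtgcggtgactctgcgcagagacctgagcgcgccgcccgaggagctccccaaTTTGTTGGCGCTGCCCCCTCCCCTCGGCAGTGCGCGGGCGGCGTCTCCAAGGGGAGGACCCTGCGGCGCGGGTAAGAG

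The level of a gene is given below as its log2 signal relative to the array's 75th percentile, read from the probe with the highest mean signal. Col4a2 (NM_009932) had levels of 4.97, 5.12 and 5.55 in ob/ob enarodustat, 5.35, 5.39 and 5.70 in ob/ob vehicle, and 4.44, 4.22 and 4.28 in wild type. Every array of both ob/ob groups lay above every wild-type array, and the 2 ob/ob groups overlapped. The log2 change of ob/ob vehicle over wild type was 1.17 ± 0.17 (SE), a 2.25-fold higher signal (95% confidence interval 1.71 to 2.95, adjusted p = 0.00658). With enarodustat the signal was still 1.86-fold that of wild type (1.42 to 2.45, log2 change 0.90 ± 0.17, adjusted p = 0.0156). The difference between the diets was -0.27 ± 0.17 on the log2 scale (adjusted p = 0.766), with an interval of the fold from 0.632 to 1.09.

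Col4a1 (NM_009931) had levels of 4.57, 5.07 and 5.28 in ob/ob enarodustat, 5.04, 5.91 and 6.02 in ob/ob vehicle, and 5.08, 4.53 and 4.75 in wild type. Replicates 2 and 3 of the ob/ob vehicle group were the 2 highest of all arrays, while replicate 1 of that group was level with the highest wild-type array, so the groups overlapped in every comparison. The log2 change of ob/ob vehicle over wild type was 0.87 ± 0.29 (adjusted p = 0.114) and did not pass the test. Without ob/ob vehicle replicate 1 it was 1.18 (adjusted p = 0.0426), so this array decided the call. The enarodustat arrays averaged 0.68 ± 0.29 log2 units less than the ob/ob vehicle arrays (log2 change -0.68, unadjusted p = 0.0451, adjusted p = 0.709), and 0.19 ± 0.29 more than wild type (adjusted p = 0.729).

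Of the members, the collagen pair had the widest range over the 9 arrays, 1.49 log2 units for Col4a1 and 1.48 for Col4a2, with the lowest value of both on wild-type replicate 2 and the highest of both on ob/ob vehicle replicate 3. The 2 chains did not keep a fixed distance. Col4a1 minus Col4a2 averaged -0.24 ± 0.17 in ob/ob enarodustat, 0.18 ± 0.43 in ob/ob vehicle and 0.47 ± 0.16 in wild type (SD, n = 3 each), and these differences compare the groups only, since 2 probes have no common scale. Mesangial cells make both chains. Of the 10 mesangial and smooth muscle markers, 3 were called higher in ob/ob vehicle than in wild type, beside 4.9% of all features. In ob/ob enarodustat 3 were called higher, beside 6.1%. Of the 10, 10 lay above 0 in ob/ob vehicle and 9 in ob/ob enarodustat. The list mixes cell types, and its members Pdgfrb (0.04 in ob/ob vehicle, -0.10 in ob/ob enarodustat) and Itga8 (0.41 and 0.16) were not called. The mean level of the list ran between 3.59 and 3.88 in ob/ob enarodustat, 3.21 and 4.02 in ob/ob vehicle, and 2.40 and 3.05 in wild type. In RNA of whole glomeruli, more or fewer cells of a type cannot be told apart from more or less RNA per cell, and the part of the mesangial markers in the Col4a2 difference was not tested.

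Col4a3, Col4a4 and Col4a5 encode the α3, α4 and α5 chains of the mature glomerular network. Col4a4 (transcript ENSMUST00000087050) had levels of 3.68, 3.63 and 3.84 in ob/ob enarodustat, 3.95, 4.02 and 4.06 in ob/ob vehicle, and 4.40, 4.74 and 4.51 in wild type. The 3 groups lay in this order without any overlap. The signal of ob/ob vehicle was 1.46-fold below that of wild type (log2 change -0.54 ± 0.12, adjusted p = 0.0318) and that of ob/ob enarodustat 1.78-fold below it (log2 change -0.84 ± 0.12, adjusted p = 0.00626). The difference between the diets was -0.29 ± 0.12 (unadjusted p = 0.0394, adjusted p = 0.708). A second Col4a4 probe gave -0.69 and -0.60 for the 2 comparisons with wild type and 0.09 for the comparison of the diets, so the order of the ob/ob groups rested on the first probe.

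Col4a5, on the X chromosome (NM_001163155), had levels of 1.66, 1.41 and 1.44 in ob/ob enarodustat, 1.66, 1.85 and 2.02 in ob/ob vehicle, and 2.36, 2.40 and 2.22 in wild type. The wild-type arrays were the 3 highest, and enarodustat replicate 1 lay just below ob/ob vehicle replicate 1. The signal of ob/ob enarodustat was 1.77-fold below wild type (log2 change -0.83 ± 0.13, adjusted p = 0.00833). The change of ob/ob vehicle from wild type was -0.48 ± 0.13 (adjusted p = 0.0604) and that of enarodustat from ob/ob vehicle -0.34 ± 0.13 (unadjusted p = 0.0292, adjusted p = 0.708). The second Col4a5 probe gave -0.46, -0.28 and -0.74 for ob/ob vehicle against wild type, enarodustat against ob/ob vehicle and enarodustat against wild type.

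Col4a3 was read by a pair of very unequal probes, whose letters are shown because they gave different sizes of change. The first (NM_007734) maps across 854 bases of build mm9, chr1:82714546-82715399, although it is 60 bases long, so it crosses an exon junction. The second (ENSMUST00000141994) lies in 1 piece at chr1:82638910-82638969 and belongs to another transcript of the gene.
Col4a3 probe 1: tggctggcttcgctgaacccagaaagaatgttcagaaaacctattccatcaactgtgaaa
Col4a3 probe 2: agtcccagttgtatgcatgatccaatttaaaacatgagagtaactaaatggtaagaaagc

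Probe 1 gave Col4a3 levels of 3.74, 3.71 and 3.96 in ob/ob enarodustat, 3.65, 3.84 and 3.99 in ob/ob vehicle, and 4.16 and 4.30 in wild type. Wild-type replicate 3 had no value because the scanner software had marked its spot as an outlier. Both wild-type values lay above all 6 ob/ob values, and the 2 ob/ob groups covered nearly the same range. With 2 wild-type values the log2 change was -0.40 ± 0.15 in ob/ob vehicle (adjusted p = 0.165) and -0.43 ± 0.15 in ob/ob enarodustat (adjusted p = 0.123), and neither passed the test. The diets differed by -0.03 ± 0.14 (adjusted p = 0.973), with an interval of the fold from 0.789 to 1.22.

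Probe 2 of Col4a3 was dim, with levels of -4.66, -6.65 and -6.00 in ob/ob enarodustat, -5.19, -5.12 and -4.45 in ob/ob vehicle, and -3.43, -3.76 and -2.76 in wild type. It was well above background on 0 enarodustat arrays, on 2 ob/ob vehicle arrays and on 3 wild-type arrays. The enarodustat group therefore has only a bound there, and its signal was at least 2.80-fold lower than in wild type, with the lowest well-measured signal of each array standing in for a dim value below it. For ob/ob vehicle against wild type this probe gave -1.60, so both probes were lower in both ob/ob groups but by different amounts. Because probe 2 passed the filter on dim signals only through wild type, where it is highest, its values are a description without a test.

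**Figure D2:**
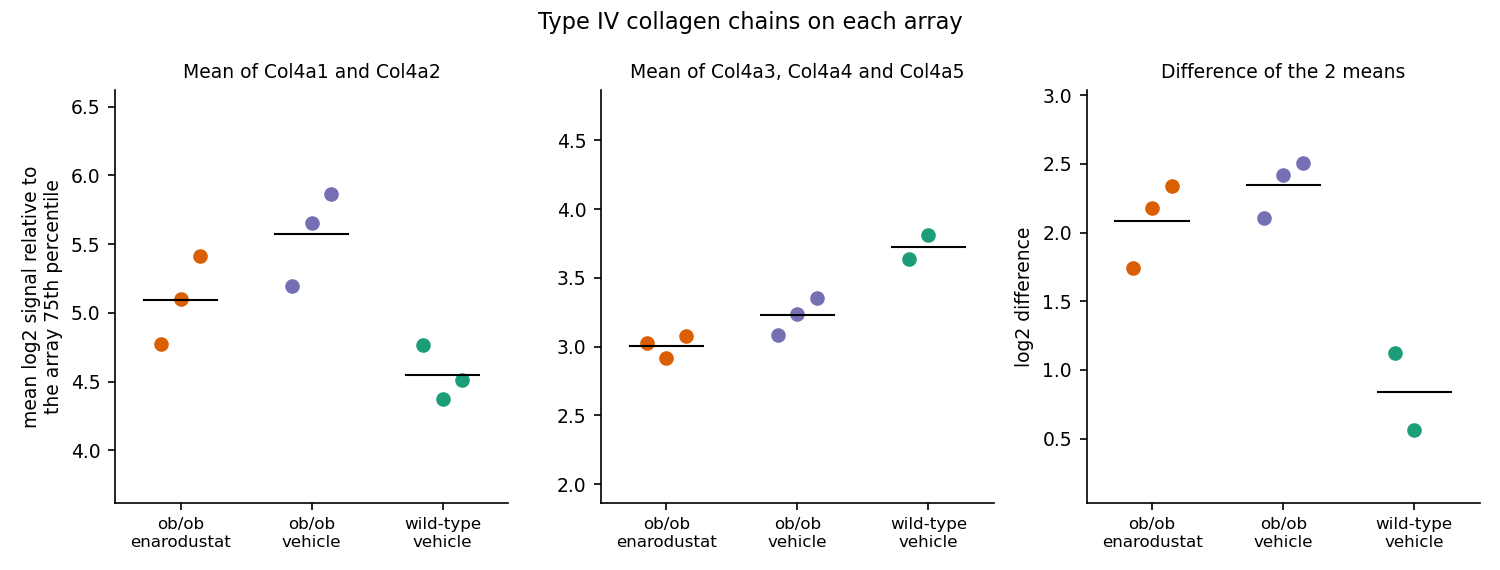
Mean level of Col4a1 and Col4a2, mean level of Col4a3, Col4a4 and Col4a5, and the difference of these means on each array, by group; points are arrays and bars are group means. The difference lies between 1.74 and 2.51 on the 6 ob/ob arrays and at 0.56 and 1.12 on the 2 wild-type arrays that have all 5 chains.

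Set against each other on the same array, the mean of Col4a1 and Col4a2 minus the mean of Col4a3, Col4a4 and Col4a5 was 1.74, 2.18 and 2.34 in ob/ob enarodustat, 2.11, 2.42 and 2.51 in ob/ob vehicle, and 1.12 and 0.56 in wild type. All 6 ob/ob values exceeded both wild-type values, and the ob/ob groups overlapped. The group means were 2.09 ± 0.31 in ob/ob enarodustat (SD, n = 3), 2.34 ± 0.21 in ob/ob vehicle (SD, n = 3) and 0.84 ± 0.40 in wild type (SD, n = 2). The size of this difference on a single array has no meaning of its own, because different probes are set against each other, and it is given without a test because the chains were grouped with these results known.

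Podocytes are the source of the α3, α4 and α5 chains. All 12 podocyte markers had a log2 change below 0 in both ob/ob groups against wild type. Of these, 6 were called lower in ob/ob vehicle (median log2 change -0.78), beside 2.66% of all features. In ob/ob enarodustat 8 were called lower (median -1.05), beside 4.09%. The mean level of the list ran between 4.60 and 5.15 in ob/ob enarodustat, 5.02 and 5.21 in ob/ob vehicle, and 5.74 and 5.87 in wild type. With the mean podocyte marker level as a covariate the log2 change of Col4a4 was -0.47 in ob/ob enarodustat (adjusted p = 0.715) and -0.26 in ob/ob vehicle (adjusted p = 0.746), and that of Col4a5 in ob/ob enarodustat was -0.51 (adjusted p = 0.724). The loss was not particular to these chains. With this covariate no member was called against wild type, Col4a2 included. Over all 24164 features, 3 were called in ob/ob vehicle and 0 in ob/ob enarodustat. Since the podocyte levels of ob/ob and wild-type arrays did not overlap, the podocyte level and the genotype cannot be told apart in these fits.

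Lama5, Lamb2 and Lamc1 encode the α5, β2 and γ1 chains of laminin-521, and none was called in any comparison. Lamc1, whose γ1 chain is shared by most laminins, had levels of 3.68, 3.51 and 4.10 in ob/ob enarodustat, 3.71, 3.81 and 3.77 in ob/ob vehicle, and 3.33, 3.19 and 2.95 in wild type. All 6 ob/ob arrays lay above the wild-type arrays. The log2 change was 0.61 ± 0.17 in ob/ob vehicle (adjusted p = 0.0662) and 0.61 ± 0.17 in ob/ob enarodustat (adjusted p = 0.0561), both just outside the threshold, and the diets differed by 0.00 ± 0.17. A second Lamc1 probe, which shares a run of 55 bases with the first, gave 0.60 in ob/ob vehicle (adjusted p = 0.0407 over 36695 probes) and 0.62 in ob/ob enarodustat (adjusted p = 0.0322). The 2 other Lamc1 probes, which lie elsewhere in the gene and are dimmer, gave 0.32 and 0.61 in ob/ob vehicle and 0.27 and 0.33 in ob/ob enarodustat, with adjusted p between 0.206 and 0.594. Without enarodustat replicate 3 the ob/ob vehicle change of Lamc1 was called (adjusted p = 0.0368), and without enarodustat replicate 2 the enarodustat change was called (0.74, adjusted p = 0.0472).

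Lama5, the α chain of the mature glomerular laminin, had levels of 5.08, 5.19 and 5.22 in ob/ob enarodustat, 4.96, 5.05 and 5.20 in ob/ob vehicle, and 4.88, 4.93 and 4.61 in wild type. Wild type held the 3 lowest values, and the ob/ob groups overlapped. The log2 changes from wild type were 0.36 ± 0.12 with enarodustat (adjusted p = 0.106) and 0.27 ± 0.12 with vehicle (adjusted p = 0.239), and the diets differed by 0.09 ± 0.12 (adjusted p = 0.867).

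Lamb2, the β chain of the mature glomerular laminin, had levels of 3.69, 3.32 and 3.87 in ob/ob enarodustat, 3.70, 3.34 and 3.59 in ob/ob vehicle, and 3.75, 3.77 and 4.18 in wild type. All ob/ob vehicle values lay below wild type, and 1 enarodustat value lay between the wild-type values. The log2 changes were -0.36 ± 0.19 for ob/ob vehicle against wild type (adjusted p = 0.290), -0.28 ± 0.19 for enarodustat against wild type (adjusted p = 0.386) and 0.08 ± 0.19 between the diets (adjusted p = 0.934).

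Agrn and Hspg2 encode the 2 heparan sulfate proteoglycans among the members, and their levels against wild type differed in opposite directions. Agrin is the main heparan sulfate proteoglycan of the glomerular basement membrane proper. Agrn (NM_021604) had levels of 5.05, 4.96 and 5.07 in ob/ob enarodustat, 5.07, 5.02 and 4.91 in ob/ob vehicle, and 5.49, 5.66 and 5.38 in wild type. All 6 ob/ob values lay below wild type and within a narrow band. The signal was 1.43-fold lower in ob/ob vehicle (log2 change -0.51 ± 0.11, adjusted p = 0.0299) and 1.40-fold lower in ob/ob enarodustat (log2 change -0.49 ± 0.11, adjusted p = 0.0311). The diets differed by 0.03 ± 0.11 (adjusted p = 0.969), with an interval of the fold from 0.852 to 1.22. The second, dim Agrn probe gave -0.71 in ob/ob vehicle (adjusted p = 0.261) and -0.90 in ob/ob enarodustat (adjusted p = 0.145).

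Perlecan is a proteoglycan of the mesangial matrix and of vessel walls. Hspg2 (NM_008305) had levels of 2.80, 2.85 and 3.05 in ob/ob enarodustat, 2.78, 2.59 and 2.88 in ob/ob vehicle, and 2.23, 2.51 and 2.18 in wild type. All 6 ob/ob values lay above wild type. The signal was 1.51-fold that of wild type in ob/ob enarodustat (log2 change 0.59 ± 0.14, adjusted p = 0.0304), and the change of 0.45 ± 0.14 in ob/ob vehicle did not pass the test (adjusted p = 0.0881). The diets differed by 0.15 ± 0.14 (adjusted p = 0.819). A second, dimmer Hspg2 probe gave 0.18 in ob/ob enarodustat (adjusted p = 0.566) and 0.11 in ob/ob vehicle (adjusted p = 0.764), so the call rests on the brighter probe.

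**Figure D3:**
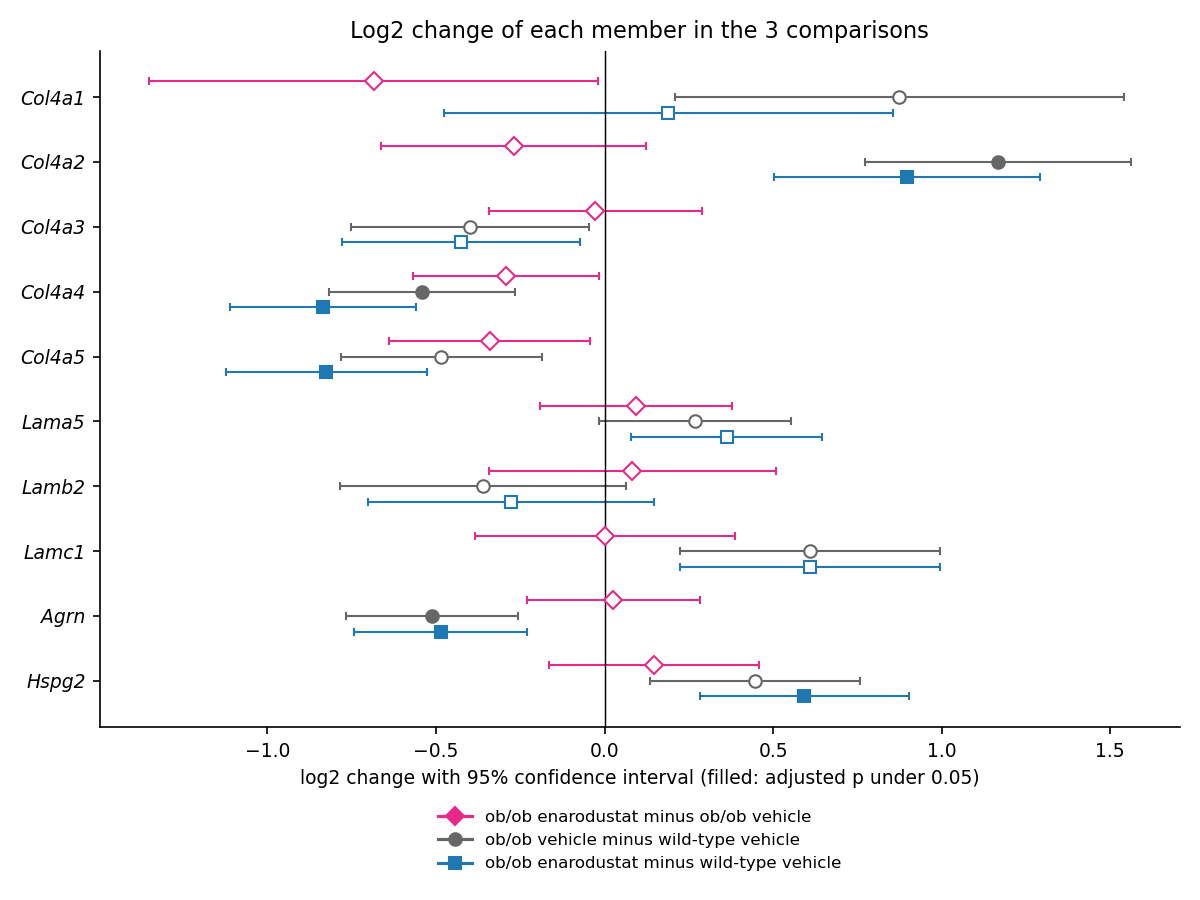
Log2 change of each member in the 3 comparisons, with its 95% confidence interval; filled symbols have an adjusted p under 0.05. The filled symbols are Col4a2, Col4a4 and Agrn for ob/ob vehicle against wild type, and these with Col4a5 and Hspg2 for ob/ob enarodustat against wild type.

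Ordered by group means, Col4a1 and Col4a2 were highest in ob/ob vehicle and lowest in wild type, with enarodustat between them. Col4a3, Col4a4 and Col4a5 were lowest in ob/ob enarodustat and highest in wild type. Lama5, Lamc1 and Hspg2 were lowest in wild type and highest in ob/ob enarodustat, and Lamb2 and Agrn were lowest in ob/ob vehicle and highest in wild type. For Lamc1 and Col4a3 the 2 ob/ob means were nearly equal, with differences of 0.00 ± 0.17 and -0.03 ± 0.14. The sign between the diets reversed in 7 of 26 alternatives for Col4a3, 5 for Lamc1 and 3 each for Lamb2 and Agrn. No member was called between the diets after adjustment. Before it, the 95% confidence interval of that difference excluded 0 for Col4a1, Col4a4 and Col4a5 and held 0 for the 7 others.

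**Figure D4:**
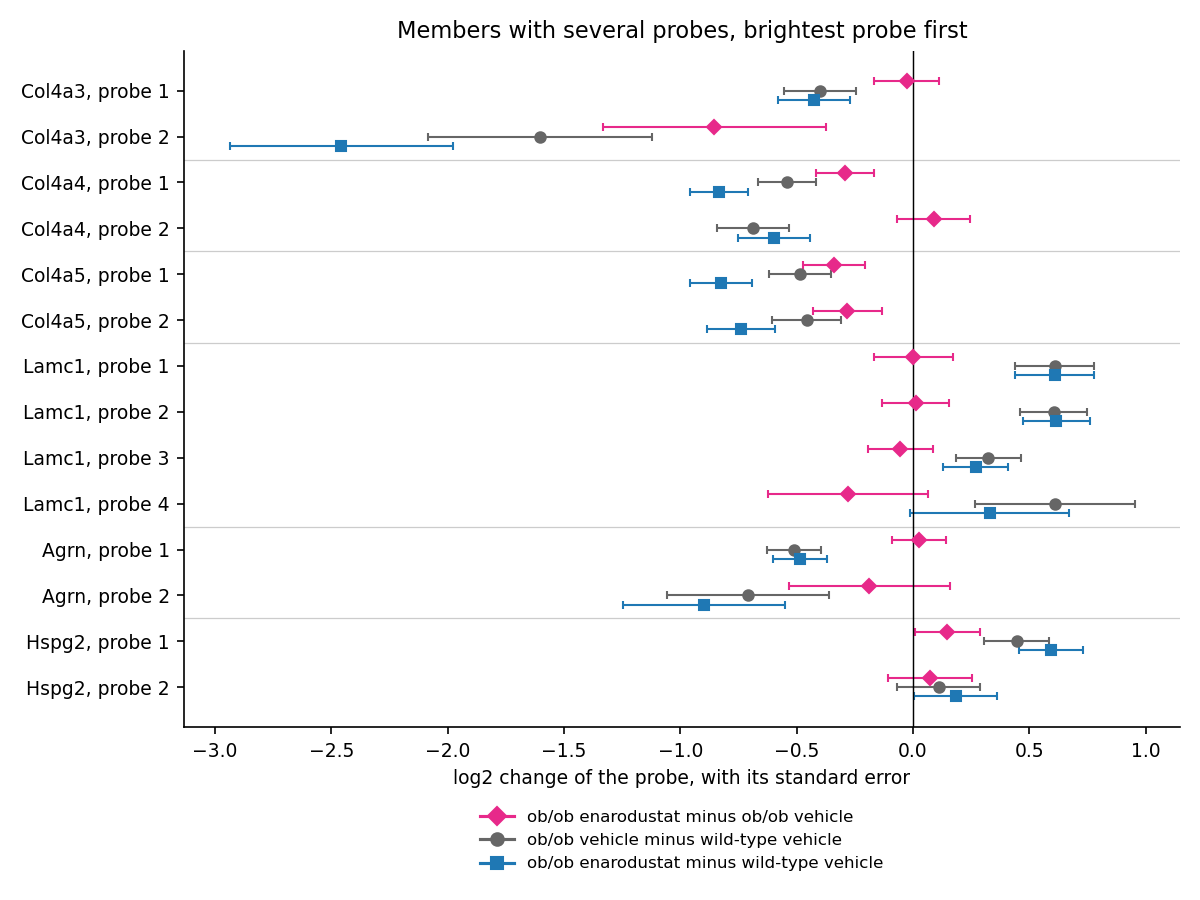
Log2 change of each probe of the 6 members that have several probes, with its standard error, in the 3 comparisons. The probes of a gene fall on the same side of 0 in both comparisons with wild type, but those of Col4a3 and Hspg2 differ in size, and in the comparison of the diets several lie on both sides of 0. Col4a3 probe 2 was well above background on 0 enarodustat arrays, so its points that involve this group are not measured sizes.

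The array carried several probes for 6 of the members, 14 probes in all. The sign of a gene was taken from its brightest probe, so 6 of the 14 probes match by construction. With these included, all 14 had the sign of their gene in both comparisons with wild type. In the comparison of the diets 10 of the 14 did. Of the remaining probes, 1 of Lamc1 shares a run of 55 bases with the brightest. The second Col4a3 probe passed the filter only through wild type. The counts are therefore a description and no support for the calls.

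The calls of single members depended on the arrays in different degrees. The higher Col4a2 in ob/ob vehicle was called without any single array. In ob/ob enarodustat its change was 0.85 when wild-type replicate 2 was left out, and this no longer passed (adjusted p = 0.0581). The lower Col4a4 and Col4a5 in ob/ob enarodustat were called without any single array. For ob/ob vehicle, the calls of Col4a4 and Agrn also ended when each array was scaled to its median (-0.48, adjusted p = 0.0757, and -0.45, adjusted p = 0.0975), and were each lost without any 1 of 6 arrays: enarodustat replicate 1, each ob/ob vehicle array, wild-type replicate 2, and wild-type replicate 3 for Col4a4 or wild-type replicate 1 for Agrn. The adjusted p was then between 0.0531 and 0.108 for Col4a4 and between 0.0512 and 0.103 for Agrn. For ob/ob enarodustat, Agrn was lost without each enarodustat array, replicate 2 of ob/ob vehicle and wild-type replicates 1 and 2, left out 1 at a time (0.0538 to 0.0997). Hspg2 was lost without each enarodustat array or wild-type replicate 1 or 3 (0.0597 to 0.0959). With the 3 arrays of extreme tubule marker levels left out together (enarodustat replicate 2, ob/ob vehicle replicate 3 and wild-type replicate 3), a choice made after seeing the data, Col4a5 in ob/ob enarodustat remained called (-0.83, adjusted p = 0.0419). Col4a2 in ob/ob vehicle was then 1.04 (adjusted p = 0.0767), and Col4a4 in ob/ob enarodustat -0.81 (adjusted p = 0.0532).

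The RefSeq promoter table held windows for 8 of the 10 members, all but Col4a3 and Lamc1, with 2 windows for Agrn. Because enarodustat acts on hypoxia-inducible factors, the windows were searched on both strands for ACGTG and GCGTG, the core letters of their binding motif. Of the 8 genes, 5 held a match (Col4a1, Col4a2, Col4a4, Agrn and Hspg2), in 5 of the 9 windows, beside 43.8% of 32851 windows of the same length. The match in Col4a1 and that in Col4a2 are both GCGTG, and both lie outside the shared 78 bases. The share over all windows was not matched for base composition. The windows with a match held 63.3% to 83.3% G and C, those without 44.0% to 72.7%, and the median over all windows was 52.7%. A match only describes these letters and is not a binding site.

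The other genes of the basement membrane were read in 5 lists with 68 genes tested, and 3 more did not pass the filter on dim signals. Between ob/ob enarodustat and wild type 20 were called, or 29.4%, beside 10.2% of all features, with 12 higher (6.1% of all features were) and 8 lower (4.09%). Smoc2, among these 8, passed the filter on dim signals only through the groups where it is higher, so its call supports nothing. Between ob/ob vehicle and wild type 16 were called, or 23.5%, beside 7.55% of all features, with 12 higher (4.9% of all features) and 4 lower (2.66%). None was called between the diets. The lists were drawn up with results of these arrays known, and the counts of single lists below stand beside the same shares of all features. The call held without any single array for 4 genes in ob/ob enarodustat (Frem1, Loxl2, Hs6st2 and Sulf1) and for 7 in ob/ob vehicle (Nid1, Fras1, Frem1, Itga1, Loxl2, Ext1 and Hs6st2), and the other calls were lost without at least 1 array. Changes below are log2 changes against wild type.

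Among the 7 other collagen IV and laminin chains tested, 2 were higher and 0 lower in each ob/ob group, the same 2 genes, with a list median of 0.20 in ob/ob enarodustat and 0.21 in ob/ob vehicle. Lama2, the α2 chain found in the mesangial matrix, changed by 1.23 (adjusted p = 0.0427) in ob/ob enarodustat and 1.26 (adjusted p = 0.0460) in ob/ob vehicle. Lamb1, the β1 chain that Lamb2 replaces as the membrane matures, changed by 0.73 (adjusted p = 0.0304) in ob/ob enarodustat and 0.72 (adjusted p = 0.0375) in ob/ob vehicle, while 1 of its 3 other probes gave 0.08 in ob/ob enarodustat and -0.30 in ob/ob vehicle.

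Of 15 other basement membrane proteins, 3 were higher and 4 lower in ob/ob enarodustat (median 0.11), and 5 were higher and 2 lower in ob/ob vehicle (median 0.09). Nid1, the nidogen that links laminin to collagen IV, had levels of 5.04, 4.78 and 5.06 in ob/ob enarodustat, 5.37, 5.27 and 5.26 in ob/ob vehicle, and 4.38, 4.33 and 3.63 in wild type. All ob/ob values were above wild type, and the change was 0.84 (adjusted p = 0.0334) in ob/ob enarodustat and 1.18 (adjusted p = 0.0104) in ob/ob vehicle. Its 2 other probes gave 0.74 and 0.51 in ob/ob enarodustat and 0.85 and 0.54 in ob/ob vehicle, the smaller of each without passing the test (adjusted p = 0.139 and 0.138 over 36695 probes). Tinagl1, a secreted matrix protein, changed by 1.24 (adjusted p = 0.0202) in ob/ob enarodustat and 1.21 (adjusted p = 0.0254) in ob/ob vehicle. Frem1 changed by 1.44 (adjusted p = 0.00833) in ob/ob enarodustat and 1.78 (adjusted p = 0.00419) in ob/ob vehicle, while its second probe gave 0.72 (adjusted p = 0.117) and 0.59 (adjusted p = 0.206) for these comparisons and did not pass. Fras1, whose protein forms a complex with those of Frem1 and Frem2, was lower in ob/ob vehicle, at -1.56 (adjusted p = 0.00745), with a value of -0.79 (adjusted p = 0.0749) in ob/ob enarodustat, and its second probe gave -0.48 in ob/ob vehicle. Frem2 changed by 0.84 (adjusted p = 0.0124) in ob/ob vehicle, with a value of 0.44 (adjusted p = 0.102) in ob/ob enarodustat, and its other probes gave 0.59 and 0.13 in ob/ob vehicle. Col15a1, a collagen of the outer zone of basement membranes, was lower, with -1.39 (adjusted p = 0.0325) in ob/ob enarodustat and -1.86 (adjusted p = 0.0125) in ob/ob vehicle. Fbln1, a fibulin, changed by -0.58 (adjusted p = 0.0238) in ob/ob enarodustat. Smoc2, a secreted calcium-binding protein, is counted among the 4 lower in ob/ob enarodustat. It was well above background on only 1 of 3 arrays there and passed the filter through the other groups, where it is higher. Its fitted change of -1.16 is therefore a description without a test and not a measured size. Beyond the 6 smallest p-values of each comparison the list held 2 more calls, Nid2, the second nidogen, with 0.90 (adjusted p = 0.0416) in ob/ob vehicle, and Npnt, the integrin ligand nephronectin, with -0.83 (adjusted p = 0.0485) in ob/ob enarodustat.

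Of the 15 receptors and adaptors that hold cells to the membrane, 2 were higher and 3 lower in ob/ob enarodustat (median -0.13), and 1 was higher and 1 lower in ob/ob vehicle (median 0.02). Itga1, the collagen receptor subunit integrin α1 of mesangial cells, changed by 0.70 (adjusted p = 0.0205) in ob/ob enarodustat and 0.87 (adjusted p = 0.00980) in ob/ob vehicle, and its 4 other probes gave 0.01 to 0.18 in ob/ob enarodustat and 0.17 to 0.32 in ob/ob vehicle. Bcam, a receptor for the laminin α5 chain, changed by -0.63 (adjusted p = 0.0283) in ob/ob enarodustat and -0.67 (adjusted p = 0.0255) in ob/ob vehicle, and its second probe gave 0.07 and 0.21 for these comparisons. Itgb4 changed by 0.90 (adjusted p = 0.0252) in ob/ob enarodustat, with 0.13 from its second probe. Sdc4, a cell surface heparan sulfate proteoglycan, changed by -0.78 (adjusted p = 0.0160), and Parva, an adaptor of integrin-linked kinase, by -0.86 (adjusted p = 0.0208), both in ob/ob enarodustat.

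Of 16 genes for collagen IV biosynthesis and cross-linking, 3 were higher and 0 lower in ob/ob enarodustat (median 0.16), and 2 were higher and 0 lower in ob/ob vehicle (median 0.24). Loxl2, a lysyl oxidase that cross-links collagen IV, had levels of 4.03, 3.69 and 4.20 in ob/ob enarodustat, 4.15, 4.05 and 4.64 in ob/ob vehicle, and 3.00, 2.68 and 2.28 in wild type. All ob/ob values lay above wild type, the change was 1.33 (adjusted p = 0.0113) in ob/ob enarodustat and 1.63 (adjusted p = 0.00594) in ob/ob vehicle, and its second probe gave 1.20 and 1.66. Colgalt1, a collagen galactosyltransferase, changed by 0.51 (adjusted p = 0.0321) in ob/ob enarodustat and 0.56 (adjusted p = 0.0272) in ob/ob vehicle, with -0.04 and 0.13 from its second probe. P3h3, of the prolyl 3-hydroxylase family, changed by 0.90 (adjusted p = 0.0342) in ob/ob enarodustat. Between the diets 13 of the 16 had a log2 change below 0, with a median of -0.08 and none at an unadjusted p under 0.05. Over all features the median was -0.03, and only 44.7% lay above 0.

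Of 15 genes of heparan sulfate synthesis and remodelling, 2 were higher and 1 lower in each ob/ob group, the same 3 genes, with a median of 0.11 in ob/ob enarodustat and 0.32 in ob/ob vehicle. Hs6st2, a 6-O-sulfotransferase of heparan sulfate, had levels of -1.38, -1.57 and -1.26 in ob/ob enarodustat, -1.25, -0.88 and -0.80 in ob/ob vehicle, and -3.64, -3.93 and -3.88 in wild type. Both ob/ob groups stood apart from wild type by more than the whole spread of any group. The change was 2.41 (adjusted p = 0.000524) in ob/ob enarodustat and 2.84 (adjusted p = 0.000174) in ob/ob vehicle, and its 2 other probes gave 1.71 and 2.77 in ob/ob enarodustat and 2.59 and 3.28 in ob/ob vehicle. Sulf1, which removes 6-O-sulfate groups, had levels of 1.63, 1.40 and 1.44 in ob/ob enarodustat, 1.27, 1.47 and 2.25 in ob/ob vehicle, and 3.02, 3.10 and 2.78 in wild type. All ob/ob values lay below wild type, and the change was -1.47 (adjusted p = 0.00896) in ob/ob enarodustat and -1.30 (adjusted p = 0.0142) in ob/ob vehicle, with -0.68 and -0.99 from its second probe. Ext1, of the enzyme complex that extends the chains, changed by 0.53 (adjusted p = 0.0291) in ob/ob enarodustat and 0.77 (adjusted p = 0.00803) in ob/ob vehicle.

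**Figure D5:**
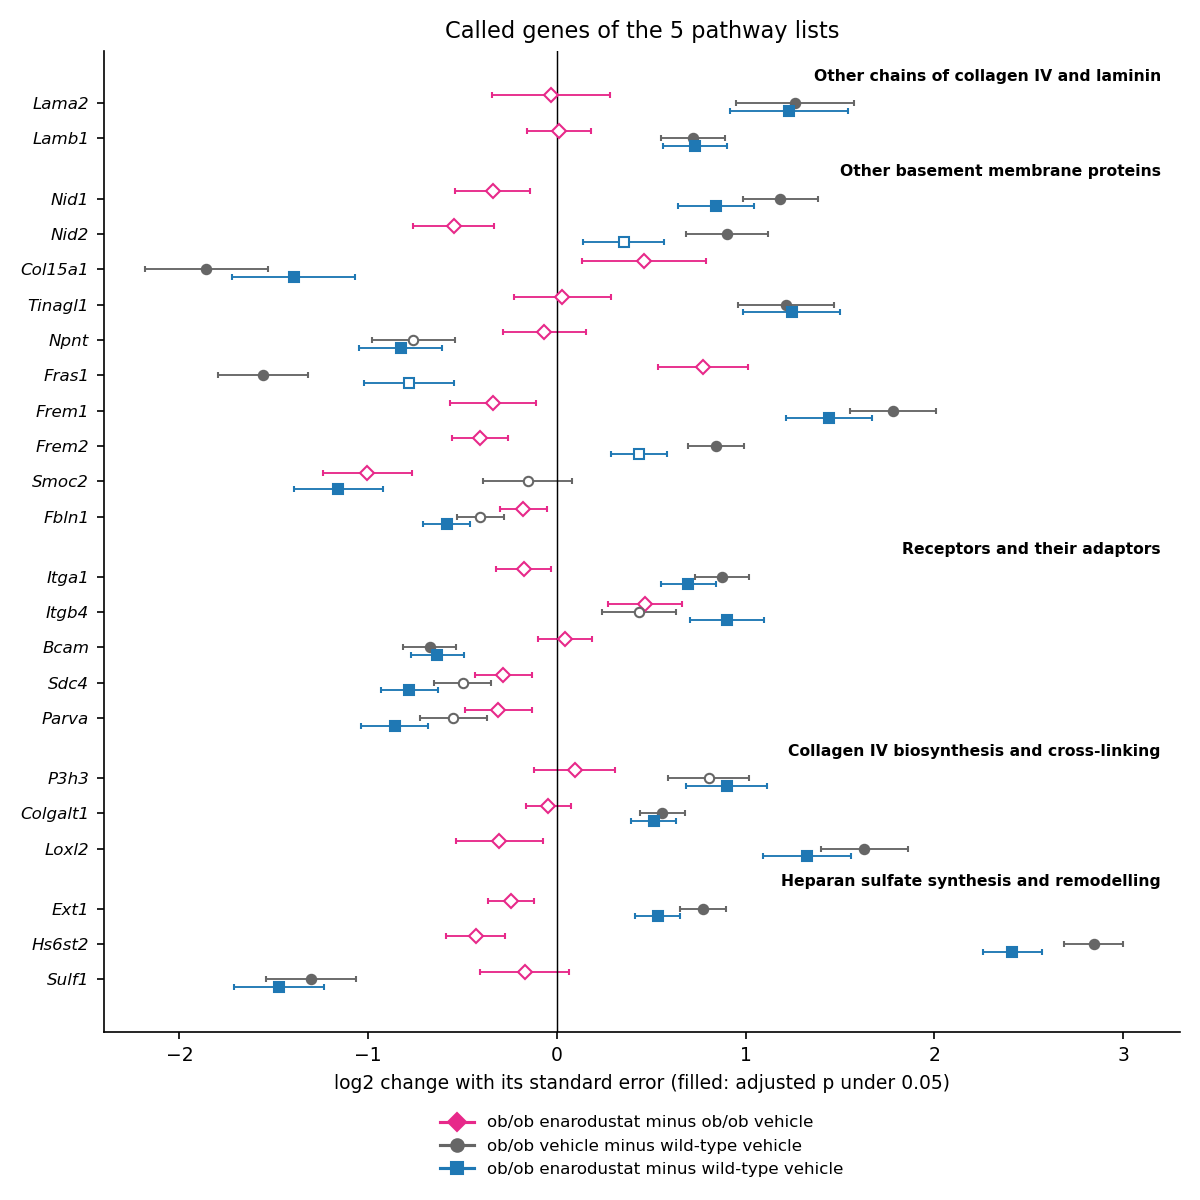
Log2 change with its standard error for the 23 genes of the 5 lists that were called in at least 1 comparison; filled symbols have an adjusted p under 0.05. No symbol of the comparison of the diets is filled, and Hs6st2 lies farthest to the right against wild type. The filled symbol of Smoc2 is a description only, since Smoc2 passed the filter through the groups where it is higher.

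Some markers of other cells also differed against wild type. Over all features, 6.1% were called higher in ob/ob enarodustat and 4.9% in ob/ob vehicle. Of 10 macrophage markers, 6 were higher in ob/ob enarodustat and 8 in ob/ob vehicle, with a mean level between 0.16 and 0.91 in ob/ob enarodustat, 0.45 and 1.49 in ob/ob vehicle, and -1.50 and -1.08 in wild type. Of 4 fibroblast markers tested, 2 were higher in each ob/ob group. Of 12 endothelial markers, 2 were higher in ob/ob enarodustat and 1 in ob/ob vehicle. Pecam1 and Kdr were not among them, and counts this small do not show an endothelial difference beyond the shares of all features. The 14 proximal tubule markers all had a log2 change below 0 in both ob/ob groups (median -0.82 in ob/ob enarodustat and -2.34 in ob/ob vehicle), and all 14 were above 0 between the diets (median 1.56), with none called in any comparison. With the proximal tubule marker level as a covariate Col4a2 was 1.05 in ob/ob vehicle (adjusted p = 0.0482), Col4a4 -0.62 (adjusted p = 0.0798) and Agrn -0.57 (adjusted p = 0.0804), while all 5 calls of ob/ob enarodustat against wild type passed the test. The 9 distal nephron markers all had a log2 change above 0 between the diets (median 2.06) and in ob/ob enarodustat against wild type (median 1.44), while 5 were above and 4 below 0 in ob/ob vehicle against wild type (median 0.04), with none called. The part of the macrophage, fibroblast, endothelial and distal nephron markers in the differences of the members was not tested.

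The genes whose levels over the arrays were most like those of Col4a1 and Col4a3 were sought among 15451 named genes, as a description without a test. Closest to Col4a1 over 9 arrays were Tnfaip2 (Pearson r = 0.973), Bysl (0.970) and Slc7a1 (0.949). Closest to Col4a3 over the 8 arrays with a value were Tram2 (0.980), Ezr (0.980), the gene of the membrane linker ezrin, and Pkdcc (0.977). These arrays share the group structure and the scaling.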

How the data were processed

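Isolated glomeruli of 3 groups were hybridised to 9 Agilent 1-colour arrays, whose images the authors extracted with Agilent Feature Extraction (version 11.5.1.1 in the file headers). In the submitters' processing notes limma is listed besides, with no stated role. Per the file headers, the deposited spot intensity is linear, background-subtracted and detrended, arrays were not normalized to each other, and probe positions are in build mm9. The authors' value table holds log2 values of the same arrays and served as an alternative. Log2 of the processed intensity minus each array's 75th percentile was computed, spots of 1 probe were averaged, and a probe with outlier spots only was set missing on that array. A probe was kept when all arrays of 1 group or more had it well above background (36695 probes), and a gene was read from its brightest probe. Names came from accessions in the RefSeq gene table (GRCm38.p6), where 32994 probes matched on the accession, 10224 on the symbol and 520 on a synonym. Groups were compared with limma 3.58.1 in R 4.3.3, all 9 arrays in 1 fit, with Benjamini-Hochberg adjustment; the fit was tested on simulated data. The 10 genes, the lists and the tests were chosen with earlier results of these data known. All 10 genes, list genes called (up to 6 per list and comparison by smallest p) and the 3 genes most like Col4a1 and Col4a3 were named, with 2 further calls added for completeness. Besides these, 1 gene of the lists is not reported here, and no list count includes it. With 3 arrays per group, the number of arrays limits the precision. Alternatives covered scaling, background, filter, probe choice, blocks, weights, covariates and left-out arrays.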

Additional observations from a re-analysis of the deposited data

How the results depend on the processing

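Enarodustat against ob/ob vehicle called 0 of the 10 members under every alternative run, leaving out single arrays included. Each of these alternatives also called 0 of all features in this comparison, so the count says nothing particular about the members. For ob/ob vehicle against wild type the count of 3 members (1 higher, 2 lower) became 1 (Col4a2) with array median scaling, without the filter on dim probes, with only the 2 groups compared and with the proximal tubule covariate, 0 with the podocyte covariate, 7 with array weights (Col4a1 among them, 1.06, adjusted p = 0.0265), and 0 without the 3 arrays of extreme tubule marker levels. Leaving out single arrays gave 1 to 4. For enarodustat against wild type the count of 5 became 3 without the filter, with only the 2 groups compared and with the slide as a block (which leaves out the lone array on its slide), 0 with the podocyte covariate, 2 without the 2 arrays of highest tubule marker levels, and 1 without the 3 arrays. Leaving out single arrays gave 3 to 5. The counts stayed within 1.5 times under quantile normalization, normexp background correction, the authors' value table, the stricter filter, the mean of a gene's probes, each probe tested alone and both other treatments of outlier spots. Removing the Col4a3 probe with the outlier spot left as its reading only the dim probe, which passed the filter through wild type alone, so the call of Col4a3 there (6 members in all for enarodustat) supports nothing. For enarodustat, Col4a3 was also called with the mean of a gene's probes and with each probe tested alone. Both readings take in that dim probe, so these calls support nothing either. The mean of a gene's probes no longer called Agrn in either comparison with wild type, nor Hspg2 in ob/ob enarodustat. Using that spot like the others gave Col4a3 -0.69 in ob/ob enarodustat and -0.66 in ob/ob vehicle against wild type, neither called.

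Over all features, 1825 calls for ob/ob vehicle and 2463 for enarodustat against wild type became 1005 and 1227 without the filter, 4169 and 4521 with array weights, 3 and 0 with the podocyte covariate, and 772 and 1167 without the 3 arrays. The tubule covariate gave 620 for ob/ob vehicle, and the slide block gave 1367 and the 2 arrays left out 1292 for enarodustat. Leaving out single arrays gave as few as 914 and 1219.

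Signs turned for changes that were called neither before nor after. Between the diets Lamc1 was -0.061 and Agrn -0.036 with array median scaling, Lamc1 -0.080 and Agrn -0.081 with the mean of a gene's probes, Lamb2 -0.039 and Lamc1 -0.17 with the slide as a block, and Col4a3 0.074 with the tubule covariate, 0.073 with the podocyte covariate, 0.020 without the 2 arrays and 0.10 without the 3 arrays. Leaving out single arrays gave -0.12 to 0.056 for Col4a3, -0.039 to 0.24 for Lamb2, -0.17 to 0.13 for Lamc1 and -0.020 to 0.061 for Agrn. Against wild type, the podocyte covariate turned Lamb2 to 0.39 in ob/ob enarodustat and to 0.16 in ob/ob vehicle, and Col4a3 to 0.020 in ob/ob enarodustat. Lamb2 in ob/ob enarodustat was 0.017 without the 2 arrays and 0.017 without the 3 arrays. Apart from the slide block, the cause of these moves was not tested.

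Correlations of deviations between arrays of the same replicate number ran between -0.31 and 0.27. Those between arrays of different numbers and groups ran between -0.37 and 0.48. With 3 arrays per group these values show no pairing by number but cannot exclude it. With the replicate number as a block the members called were 1 for ob/ob vehicle against wild type, 0 between the diets and 3 for enarodustat against wild type. Leaving out the 3 arrays and both other treatments of outlier spots were chosen after seeing the data.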
